A study of Mus musculus with 8 samples.

Results

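Immediate-early and heat-shock stress genes were followed by RNA-seq in mouse embryonic stem cells (mESCs) and mesoderm progenitors, to ask whether cells that had gone through a cell sorter carried a dissociation and sorting response. The 10 genes studied were Fos, Jun, Junb, Egr1, Atf3, Ier3, Hspa1a, Hspa1b, Dnajb1 and Ddit3. They were chosen by name from the 37620 genes in the count tables, with earlier results of these data known. Each symbol matched 1 gene of the GENCODE vM1 annotation, and all 10 passed the filter on low counts, along with 16961 genes in all. In the sorted library the genes were split. Fos, Jun and Ddit3 were higher than in unsorted cells of the same medium by an edgeR test, at 6.02, 3.70 and 5.34 times the level of the unsorted library of the same day. With any of the 3 unsorted days left out of the fit, edgeR called 0 of them. Hspa1a, Hspa1b, Atf3 and Ier3 were at 7.21, 4.05, 2.85 and 2.56 times the day 2 level and did not pass the test against the 3 days. Egr1, Junb and the co-chaperone gene Dnajb1 were at 1.41, 1.19 and 1.04 times that level and did not pass the test. In the mesoderm progenitors Egr1, Junb and also Jun were called higher than in those unsorted cells. Jun did not pass a direct test of sorted cells against mesoderm (edgeR adjusted p = 0.362).

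Immediate-early genes are transcribed within minutes of a stimulus from factors already present in the cell, without new protein synthesis. Growth factors switch them on through the kinases MEK and ERK, and mechanical or enzymatic handling of tissue does so through stress kinases, which is why Fos, Jun and Egr1 are commonly read as marks of cell dissociation. Heat-shock genes answer to unfolded protein through the factor HSF1, and Ddit3 and Atf3 belong to the integrated stress response, in which ATF4 is translated when general protein synthesis is slowed.

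The series held 8 libraries, 1 for each condition and day. Whether the days of a condition came from separate cultures is not stated. R1, a mouse embryonic stem cell line, gave 7 of them, and a line carrying a green fluorescent reporter of Cdx2 gave the other. R1 cells were maintained without feeder cells in serum-containing medium, and no account of feeders is at hand for the Cdx2 reporter line. All mESC cultures, the sorted one included, had CHIR99021 (3 µM, a GSK3 inhibitor) and PD0325901 (1 µM, a MEK inhibitor), the pair called 2i. The 2i library and the 2iJ library, which had a JAK inhibitor (2 µM) as well, were from day 5. The 2iJ+B-A libraries, with BMP4 (10 ng/ml) and ALK5 inhibitor II (10 µM) added to 2iJ, were from days 2, 5 and 11. The sorted library held Cdx2-GFP-positive cells taken on day 2 from the same medium. The 2 mesoderm progenitor libraries, from days 3 and 4, came from embryoid bodies in a serum-free medium for which no MEK inhibitor is listed. According to the study's methods those bodies were dissociated before the first collection and re-aggregated with BMP4, Activin A and Wnt3a. The cells collected later had a further day with an inhibitor of Wnt secretion. The study's text gives no account of the dissociation or sorting steps, so how long the cells were out of culture is not known here.

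Some properties of the libraries touch every value below. Gene counts were 19810855 in the sorted library and 24532587 to 31453888 in the others. The sorted library stood apart in that 29.7% of its read pairs were unmapped, against 2.17 to 3.85% elsewhere. Of its uniquely mapped pairs 27.84% were counted to no gene, against 7.83 to 13.21%. Pairs within introns were not separated from pairs between genes in that share. Line, sorting and library quality vary together in it and cannot be told apart. All 7 fibroblast markers (Col1a1, Col1a2, Col3a1, Thy1, Lum, Dcn and Postn) were highest in the sorted library, where they summed to 104.89 CPM (gene counts scaled to a library total of 1000000), against 8.56 to 14.27 CPM in the 5 unsorted mESC libraries and 9.3 and 15.9 CPM in the mesoderm progenitors. Dcn, at 1.72 CPM in the sorted library, was at 0 in 5 other libraries. The part of this signal in the results on sorted cells was not tested. Trophectoderm markers summed to 3961.11 CPM in the sorted library and to 92.66 to 1397.79 CPM in the unsorted mESC libraries. In day 3 and day 4 mesoderm they summed to 1023.88 and 881.11 CPM, with Eomes at 393 CPM on day 3 and Hand1 at 540 CPM on day 4. The gate of the sorted cells was on Cdx2-GFP, and 7 of these 9 markers were highest in the sorted library. Krt8 and Krt18 made up most of the sum in the sorted library, at 1731 and 1595 CPM. Eomes was at 2.68 CPM there against 18.97 CPM in 2i, and Hand1 at 36.6 CPM against 99.5 CPM in 2iJ+B-A day 5. Pluripotency markers summed to 2030.25 CPM in the sorted library and to 2964.66 to 4635.24 CPM in unsorted mESCs. Sox2, Nanog, Zfp42, Esrrb and Tdgf1 were lower in the sorted library than in unsorted day 2. Klf4 was highest in the sorted library, at 209 CPM, and Pou5f1 was at 957 CPM against 865 CPM in unsorted day 2. In day 3 and day 4 mesoderm the pluripotency markers summed to 1268.45 and 124.11 CPM, and the nascent mesoderm markers reached 1360.88 and 578.38 CPM. Primitive endoderm markers summed to 39.42 CPM in the sorted library, to 6.36 to 187.07 CPM in unsorted mESCs and to 266.19 and 575.73 CPM in mesoderm. Most of the sorted sum was Gata6, at 32.8 CPM, whereas Gata4 was at 0.757 CPM and Sox7 and Foxa2 at 0.151 CPM each. In mesoderm Pdgfra, which is also in the nascent mesoderm list, was at 145 and 240 CPM and Gata4 at 96.6 and 226 CPM. Sox17 was at 2.07 and 2.10 CPM in mesoderm.

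**Figure D1:**
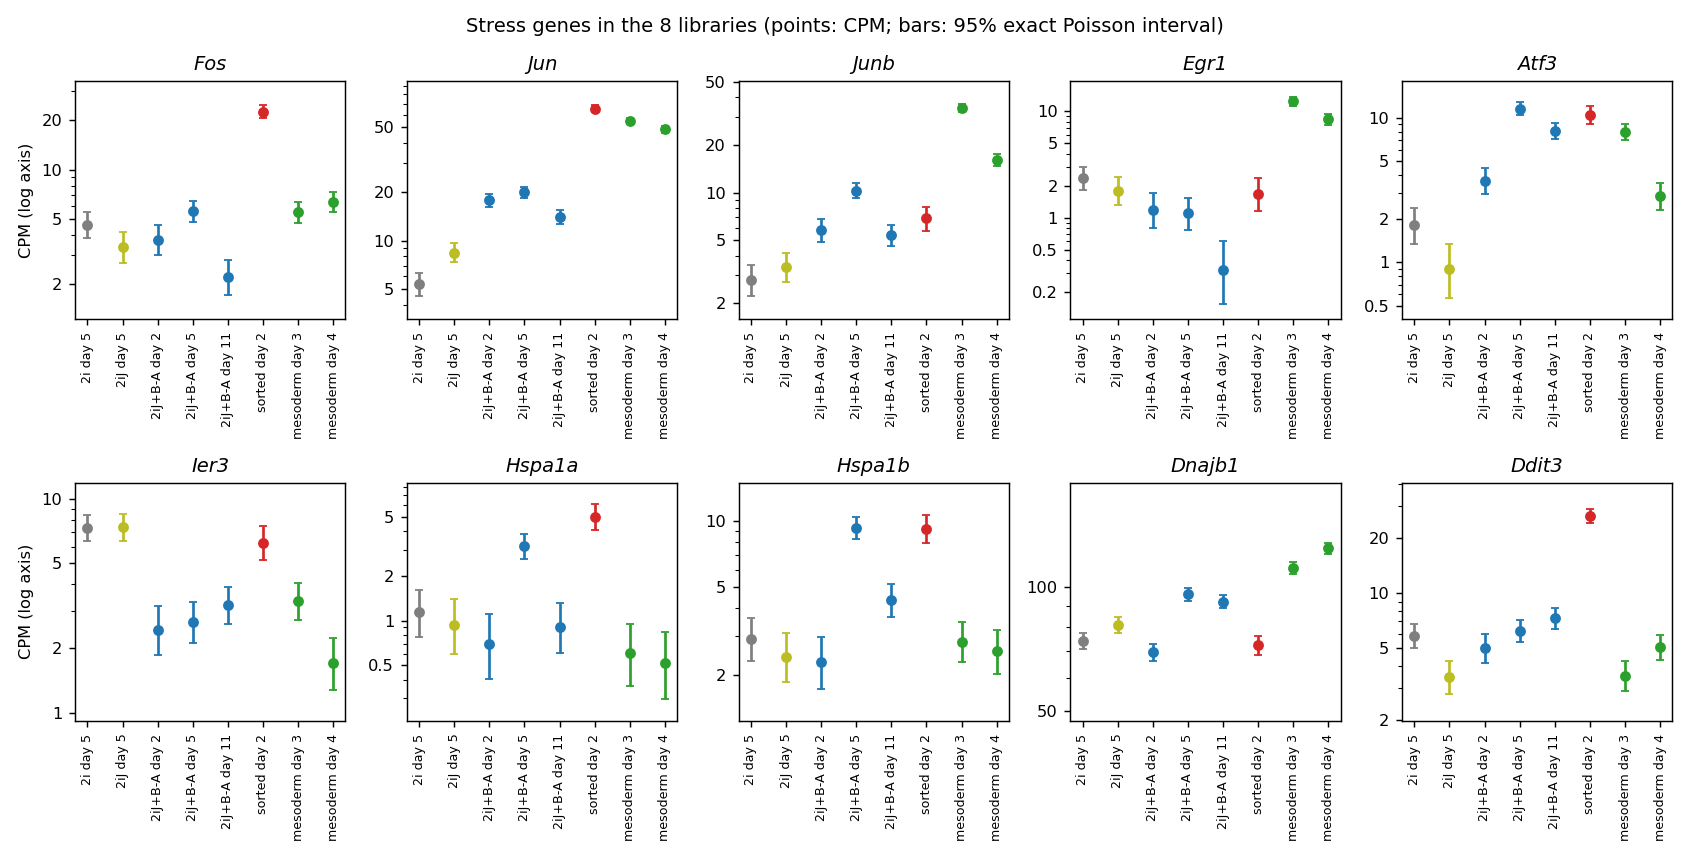
Level of each of the 10 stress genes in the 8 libraries, in CPM on a log axis that differs between panels; points are single libraries, bars are 95% exact Poisson intervals of the counts, and colours mark the 5 groups. Fos and Ddit3 stand alone in the sorted library at 22.6 and 26.6 CPM, whereas Egr1 and Junb peak in the mesoderm progenitors at 12.4 and 34.1 CPM.

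Fos, the AP-1 subunit that pairs with JUN proteins, rose in the sorted cells. It lies at chr12:86814840-86818223 of NCBIM37 on the plus strand, and no other annotated gene overlaps it. Its level was 22.6 CPM in the sorted library (447 counts, 95% exact Poisson interval 20.5 to 24.8 CPM). In the 2iJ+B-A libraries it was 3.75, 5.60 and 2.21 CPM on days 2, 5 and 11, in 2i and 2iJ 4.62 and 3.39 CPM, and in the mesoderm progenitors 5.50 and 6.40 CPM. The sorted library was therefore above all the others, 3.53 times the next highest. Against the unsorted library of the same day the ratio was 6.02 (95% counting interval 4.80 to 7.61). Over the 3 days of 2iJ+B-A the log2 fold change was 2.60 (SE 0.52, edgeR adjusted p = 0.0443).

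Jun, the main partner of FOS, was high in the sorted cells but nearly as high in the mesoderm progenitors. It is at chr4:94715725-94718913 on the minus strand, and BC042782 overlaps it on the plus strand. Its level was 65.4 CPM in the sorted library, 54.8 and 48.6 CPM in mesoderm on days 3 and 4, 17.7, 19.9 and 14.0 CPM in 2iJ+B-A on days 2, 5 and 11, 8.41 CPM in 2iJ and 5.40 CPM in 2i. The sorted library was 3.28 times the highest unsorted mESC library. For 30.0% of all genes tested the sorted library was likewise above all 5 of these. The log2 fold change against 2iJ+B-A was 1.98 for the sorted cells (SE 0.26, edgeR adjusted p = 0.0185) and 1.60 for mesoderm (SE 0.22, edgeR adjusted p = 0.0056). The direct difference of sorted cells from mesoderm, 0.38 on the log2 scale (SE 0.29, edgeR adjusted p = 0.362), did not pass the test.

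Junb, another JUN family member that forms AP-1 dimers, was high in mesoderm and not in the sorted cells. It is a single-exon gene at chr8:87500811-87502617 on the minus strand. It was at 6.87 CPM in the sorted library, within the range of 5.37 to 10.3 CPM of the 2iJ+B-A libraries (5.79 CPM on day 2, 10.3 CPM on day 5 and 5.37 CPM on day 11). In 2i and 2iJ it was 2.81 and 3.39 CPM, and in mesoderm 34.1 and 16.1 CPM on days 3 and 4. Both mesoderm libraries were above all 6 mESC libraries, by a factor of at least 1.56. The log2 fold change was -0.0046 for sorted cells against 2iJ+B-A (SE 0.58, edgeR adjusted p = 0.997) and 1.82 for mesoderm (SE 0.45, edgeR adjusted p = 0.0286). The latter call was lost on leaving out mesoderm day 3 (edgeR adjusted p = 0.092), 2iJ+B-A day 2 (0.0871) or 2iJ+B-A day 11 (0.0803).

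Egr1, a zinc-finger factor whose transcription follows ERK signalling, was low in every mESC library including the sorted one. The gene is at chr18:35020861-35024638 on the plus strand, with Gm17507 on the other strand. It measured 1.67 CPM in the sorted library (33 counts, 95% exact Poisson interval 1.15 to 2.34 CPM). In 2i and 2iJ it was 2.35 and 1.79 CPM, and in 2iJ+B-A 1.18, 1.11 and 0.326 CPM on days 2, 5 and 11, the last from 10 counts. The mesoderm progenitors had 12.4 and 8.40 CPM on days 3 and 4, at least 3.58 times the highest mESC library. Mesoderm was higher than 2iJ+B-A by 3.58 on the log2 scale (SE 0.62, edgeR adjusted p = 0.0104). The sorted cells differed from 2iJ+B-A by 0.98 (SE 0.75, edgeR adjusted p = 0.438), which did not pass the test, and their ratio to the unsorted day 2 library was 1.41 with a counting interval of 0.83 to 2.41. Against day 5 that interval was 0.90 to 2.48, and against day 11 the ratio was 5.12 (2.46 to 11.64).

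The stress-responsive factor gene Ddit3, which encodes CHOP, rose with Fos. It lies at chr10:126727830-126733344 on the plus strand, and Mars and RP24-341K21.6 overlap it on the other strand. Its level was 26.6 CPM in the sorted library (526 counts), 4.97, 6.20 and 7.29 CPM in 2iJ+B-A on days 2, 5 and 11, 5.83 CPM in 2i, 3.46 CPM in 2iJ, and 3.53 and 5.04 CPM in mesoderm. No other library came within a factor of 3.64 of the sorted one. The day 2 ratio was 5.34 (95% counting interval 4.38 to 6.56), and the log2 fold change against 2iJ+B-A was 2.16 (SE 0.40, edgeR adjusted p = 0.0387). Reads on the opposite strand of the gene made up 16.8% of its counts in the sorted library and 39.9 to 63.5% elsewhere. They numbered 106 in the sorted library and 131 to 211 in unsorted 2iJ+B-A, so the rise was on the sense strand. Counted without strand, the log2 fold change was 2.01 (edgeR adjusted p = 0.0358).

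Atf3, a repressor of the ATF family induced by many stresses, was high in the sorted library and in unsorted cells of the later days alike. It is at chr1:192994175-193007219 on the minus strand. It was at 10.4 CPM in the sorted library, 3.67, 11.5 and 8.07 CPM in 2iJ+B-A on days 2, 5 and 11, 1.81 CPM in 2i, 0.895 CPM in 2iJ, and 7.98 and 2.87 CPM in mesoderm. The sorted library was 2.85 times the day 2 library (95% counting interval 2.21 to 3.69) but 0.91 times the day 5 library (0.76 to 1.08). Its log2 fold change against the 3 days together was 0.49 (SE 0.77, edgeR adjusted p = 0.719).

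Ier3, an early-response gene that protects cells from apoptosis, was highest in the cultures without BMP4. It is at chr17:35958629-35959868 on the plus strand. It was at 7.35 and 7.39 CPM in 2i and 2iJ, 6.26 CPM in the sorted library, 2.45, 2.67 and 3.19 CPM in 2iJ+B-A on days 2, 5 and 11, and 3.34 and 1.71 CPM in mesoderm. The sorted library was above all 3 libraries of its own medium and below the 2 without BMP4. Its log2 fold change against 2iJ+B-A was 1.22 (SE 0.51, edgeR adjusted p = 0.187), which did not pass the test.

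The inducible HSP70 genes Hspa1a and Hspa1b, which encode the chaperone that accumulates on heat shock, lie near each other on the minus strand at chr17:35106144-35109069 and chr17:35093381-35096183. They are near-identical copies, and Gm20481 overlaps Hspa1a on the other strand. Of the 126-base windows of the Hspa1a transcript, the length of a read, 57.4% do not occur in Hspa1b, and 55.4% of those of Hspa1b do not occur in Hspa1a. The counts hold only uniquely mapped pairs, so they rest on those parts, and how reads were split between the copies is uncertain. Hspa1a was at 5.00 CPM in the sorted library (99 counts), 0.693, 3.18 and 0.911 CPM in 2iJ+B-A on days 2, 5 and 11, 1.14 CPM in 2i, 0.934 CPM in 2iJ, and 0.604 and 0.517 CPM in mesoderm. Hspa1b was at 9.24 CPM in the sorted library, 2.28, 9.28 and 4.36 CPM in 2iJ+B-A on days 2, 5 and 11, 2.91 CPM in 2i, 2.41 CPM in 2iJ, and 2.83 and 2.55 CPM in mesoderm. For both copies the sorted library and the unsorted day 5 library were the highest pair, and the remaining 6 libraries were lower. Against the unsorted day 2 library the ratios were 7.21 for Hspa1a (95% counting interval 4.28 to 12.9) and 4.05 for Hspa1b (2.98 to 5.56), but against day 5 they were 1.57 (1.18 to 2.10) and 1.00 (0.82 to 1.20). The log2 fold changes against the 3 days together, 1.70 (SE 0.85, edgeR adjusted p = 0.25) and 0.86 (SE 0.73, edgeR adjusted p = 0.48), did not pass the test.

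Dnajb1, the HSP40 co-chaperone that delivers clients to HSP70, was expressed in every library and varied least of the 10 genes, with a factor of 1.79 between the highest and the lowest library. It lies at chr8:86132074-86135801 on the plus strand. It was at 72.1 CPM in the sorted library, 69.4, 95.95 and 92.1 CPM in 2iJ+B-A on days 2, 5 and 11, 73.8 CPM in 2i, 80.8 CPM in 2iJ, and 111 and 124 CPM in mesoderm. The sorted library ranked 7 of 8. The day 2 ratio was 1.04 with a counting interval of 0.97 to 1.12, and the log2 fold change against 2iJ+B-A was -0.20 (SE 0.24, edgeR adjusted p = 0.617).

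The 250 bases before the transcription start are shown for the 3 genes that rose in the sorted cells and for the HSP70 pair, and for Atf3, the other gene of the integrated stress response among the 10. They are RefSeq promoter windows, each found once on its chromosome in NCBIM37, written 5′ to 3′ on the strand of the gene with motif matches in capitals. Capitals mark TGACGT, the core of the cyclic AMP response element (CRE), in Fos (chr12:86814590-86814839) and Atf3 (chr1:193007213-193007462), and TGACNTCA, a CRE-like site, in Jun (chr4:94718914-94719163). They mark TGANTCA, the AP-1 site, in Ddit3 (chr10:126727599-126727848), TTGCATCA, a C/EBP-ATF composite site, in Atf3, and GAANNTTC, a pair of heat shock element units, in Jun, Hspa1a (chr17:35109102-35109351) and Hspa1b (chr17:35096184-35096433).
Fos: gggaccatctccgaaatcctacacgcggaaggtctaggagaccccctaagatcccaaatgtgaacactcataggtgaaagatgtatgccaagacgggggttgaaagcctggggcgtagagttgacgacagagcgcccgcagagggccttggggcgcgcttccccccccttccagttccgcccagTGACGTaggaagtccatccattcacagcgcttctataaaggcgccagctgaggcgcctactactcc
Jun: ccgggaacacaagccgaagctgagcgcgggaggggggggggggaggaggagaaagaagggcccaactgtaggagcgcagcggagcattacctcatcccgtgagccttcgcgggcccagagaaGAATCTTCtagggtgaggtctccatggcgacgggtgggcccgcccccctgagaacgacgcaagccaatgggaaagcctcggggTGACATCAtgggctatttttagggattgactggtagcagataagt
Atf3: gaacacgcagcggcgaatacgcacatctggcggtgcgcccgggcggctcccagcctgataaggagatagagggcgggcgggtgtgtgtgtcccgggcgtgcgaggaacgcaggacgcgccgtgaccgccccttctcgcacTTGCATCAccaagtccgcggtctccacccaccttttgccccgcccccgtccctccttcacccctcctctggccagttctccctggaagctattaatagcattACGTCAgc
Ddit3: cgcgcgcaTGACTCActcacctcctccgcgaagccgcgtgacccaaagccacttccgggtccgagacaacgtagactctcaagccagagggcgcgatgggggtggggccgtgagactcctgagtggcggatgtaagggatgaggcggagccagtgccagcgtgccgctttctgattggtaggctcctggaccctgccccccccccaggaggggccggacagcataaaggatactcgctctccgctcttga
Hspa1a: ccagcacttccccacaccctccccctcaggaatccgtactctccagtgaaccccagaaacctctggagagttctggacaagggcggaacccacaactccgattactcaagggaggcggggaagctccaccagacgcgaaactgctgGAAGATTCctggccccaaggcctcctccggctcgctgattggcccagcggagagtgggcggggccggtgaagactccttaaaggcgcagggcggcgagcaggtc
Hspa1b: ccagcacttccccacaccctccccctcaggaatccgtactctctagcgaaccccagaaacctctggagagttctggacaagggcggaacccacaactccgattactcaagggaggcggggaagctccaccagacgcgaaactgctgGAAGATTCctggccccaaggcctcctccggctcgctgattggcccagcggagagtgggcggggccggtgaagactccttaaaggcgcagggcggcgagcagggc
Both strands were searched, and a match with TGACGT can overlap one with TGACNTCA. Among all 32851 windows of that length in the table, 6.47% held TGACGT, 7.49% TGACNTCA, 6.75% TGANTCA, 0.791% TTGCATCA, 6.69% GAANNTTC, 7.17% the inverted form TTCNNGAA and 1.47% a CArG box. The shared GAAGATTC of the HSP70 pair begins 104 bases before the start in both genes, and the windows of the pair differ at 3 of 250 bases. Windows were at hand for 9 of the 10 genes, all but Egr1. Those of Junb, Ier3 and Dnajb1 held none of these letters. No binding was measured, so the matches are a description of sequence only.

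The sorted cells were then compared with the unsorted library of the same day and medium, 1 library a side with no replicate. At least 2-fold higher were 7 of the 10 genes (Fos, Jun, Atf3, Ier3, Hspa1a, Hspa1b and Ddit3), whereas 17.9% of all genes tested were 2-fold higher and 19.4% 2-fold lower. None of the 10 was 2-fold lower, and their median log2 ratio of CPM + 1 was 1.47, against -0.045 over all genes tested. With the day 5 library as reference 4 genes were at least 2-fold higher (Fos, Jun, Ier3 and Ddit3), and 14.7% of all genes tested. With day 11 6 were (Fos, Jun, Egr1, Hspa1a, Hspa1b and Ddit3), and 17.2% of all genes tested. Fos, Jun and Ddit3 thus exceeded 2-fold against each day, from 3.28 to 10.19 times. For 4 of the 10 (Fos, Jun, Hspa1a and Ddit3) the sorted library was the highest of all 8, as it was for 23.1% of all genes tested, and for the same 4 it was above all 5 unsorted mESC libraries, as it was for 30.0%. These shares are too near the background to set the genes apart by rank alone. The fibroblast markers, at 104.89 CPM in the sorted library, summed to 8.56 CPM in the unsorted day 2 library. In bulk RNA, fewer cells of a type and less RNA per cell cannot be told apart, and no cell counts come with these libraries.

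**Figure D2:**
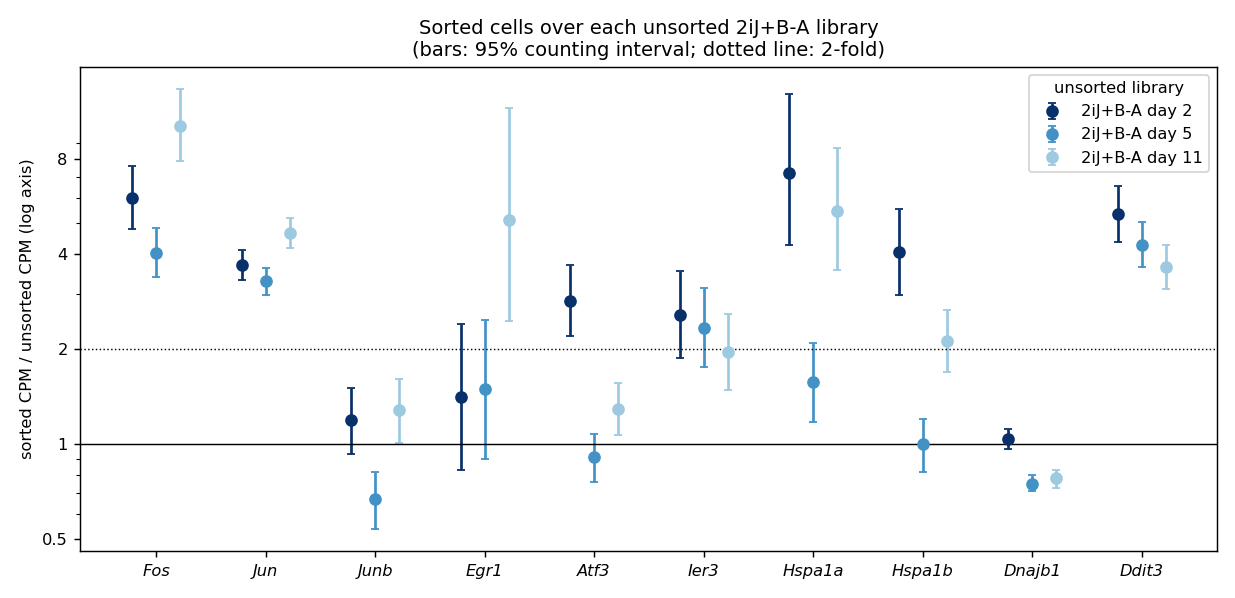
Ratio of the sorted library to each unsorted 2iJ+B-A library for the 10 genes, on a log axis; points are CPM ratios, bars are 95% counting intervals, the solid line is 1 and the dotted line 2. Fos, Jun and Ddit3 lie above 2 for all 3 days, whereas Hspa1a, Hspa1b and Atf3 lie above it for day 2 and not for day 5.

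Across the 3 days of 2iJ+B-A, edgeR called 3 of the 10 genes higher in the sorted library (Fos, Jun and Ddit3) and 0 lower, when 3.34% of 16961 genes tested were called higher and 2.08% lower. DESeq2 also called these 3, when it called 7.07% of all genes tested higher and 8.83% lower. At an unadjusted p under 0.05 in edgeR the same 3 genes were higher and 0 lower, when 12.3% of all genes tested were higher and 14.7% lower. The median log2 fold change of the 10 was 1.10, against -0.078 over all genes tested. These calls rest on 3 unsorted libraries that differ in day. Leaving out day 2, day 5 or day 11 gave 0 calls among the 10 each time. For the 3 genes edgeR adjusted p was then between 0.0668 and 0.104, between 0.0921 and 0.156 and between 0.064 and 0.102. Their log2 fold changes stayed between 1.85 and 2.95. Over all genes, edgeR calls fell from 919 to 91, 37 and 117 in the same fits. With a slope on day and the comparison at day 2, the log2 fold changes were 2.26 for Fos, 1.81 for Jun and 2.45 for Ddit3 (edgeR adjusted p = 0.176, 0.102 and 0.11). In that fit edgeR called 27 genes in all.

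The mesoderm progenitors were compared with 2iJ+B-A in the same way. In them edgeR called Jun, Junb and Egr1 higher and 0 of the 10 lower, when 11.5% of all genes tested were higher and 15.5% lower. At an unadjusted p under 0.05 Dnajb1 joined them with a log2 fold change of 0.47 (SE 0.18, edgeR adjusted p = 0.105) and 0 were lower, when 18.4% of all genes tested were higher and 22.3% lower. DESeq2 called the same 3 genes, when it called 14.4% of all genes tested higher and 18.0% lower. Both mesoderm libraries were above all 6 mESC libraries for Junb, Egr1 and Dnajb1, 3 of the 10 genes, a position held by 19.3% of all genes tested. Fos did not pass the test in mesoderm, with a log2 fold change of 0.64 (SE 0.45, edgeR adjusted p = 0.325), and Ddit3 was at -0.51 (SE 0.35, edgeR adjusted p = 0.325). The median of the 10 was 0.17, against -0.025 over all genes tested.

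Set directly against mesoderm, the sorted cells were higher in Ddit3, by 2.67 on the log2 scale (SE 0.45, edgeR adjusted p = 0.00962), and in Fos, by 1.96 (SE 0.58, edgeR adjusted p = 0.0485). That is 2 of the 10 genes, when 15.6% of all genes tested were called higher and 12.0% lower. The call of Fos was lost without mesoderm day 3 (edgeR adjusted p = 0.1), mesoderm day 4 (0.0788), 2iJ+B-A day 2 (0.0796) or 2iJ+B-A day 5 (0.0758) and without the filter on low counts (0.0506), and that of Ddit3 held in each of these fits. Other calls were gained: Hspa1a higher without 2iJ+B-A day 5 (0.0404) or without the filter (0.0415), Junb lower without mesoderm day 4 (0.0373) and Egr1 lower without 2iJ+B-A day 11 (0.0464). Just outside the threshold was Hspa1a, higher by 3.18 (SE 0.95, edgeR adjusted p = 0.0508). Egr1 and Junb were lower by log2 fold changes of -2.60 (SE 0.92, edgeR adjusted p = 0.0782) and -1.83 (SE 0.67, edgeR adjusted p = 0.0849), which edgeR did not call. With DESeq2, 5 of the 10 passed: Fos, Hspa1a and Ddit3 higher, Egr1 and Junb lower, when DESeq2 called 17.4% of all genes tested higher and 16.6% lower. At an unadjusted p under 0.05 in edgeR, 4 were higher (with Ier3) and 3 lower (with Dnajb1), when 22.2% of all genes tested were higher and 20.1% lower.

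**Figure D3:**
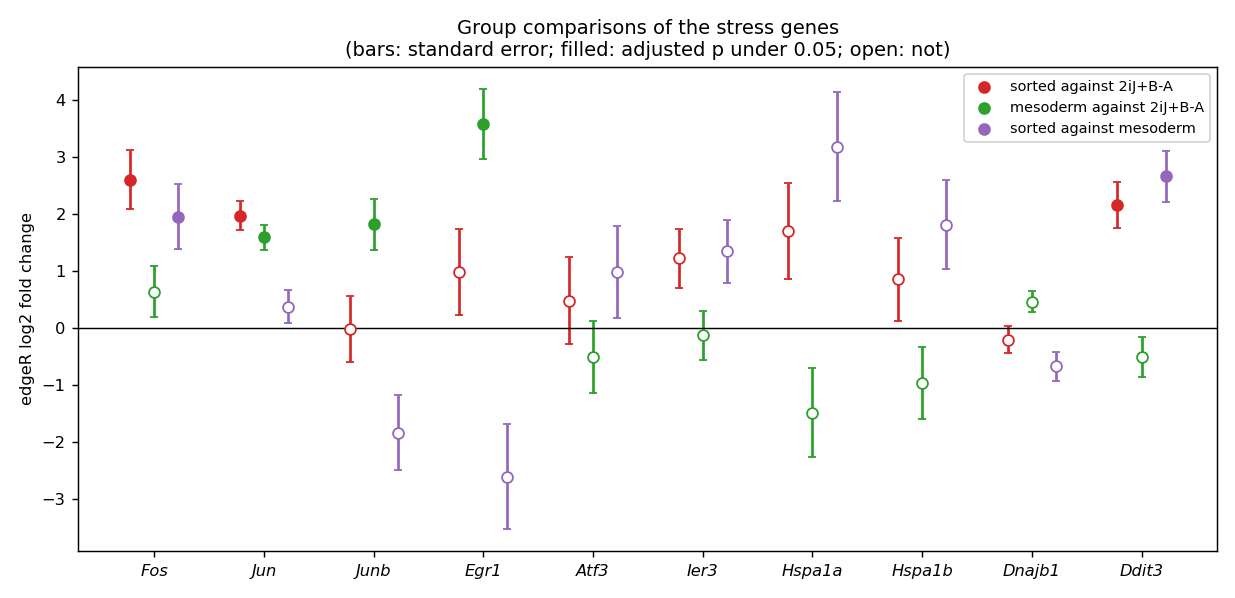
edgeR log2 fold change of the 10 genes in 3 comparisons, with bars for the standard error; filled points have an adjusted p under 0.05 and open points do not. Sorted cells are higher than 2iJ+B-A in Fos (2.60), Jun (1.98) and Ddit3 (2.16), and mesoderm in Egr1 (3.58), Junb (1.82) and Jun (1.60).

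The culture additions were compared among R1 cells. The 2iJ+B-A group held days 2, 5 and 11 and the 2iJ group 1 library of day 5, so day was not matched between them. For 2iJ+B-A against 2iJ, edgeR called 0 of the 10 genes and 0.0% of all genes tested, although 1290 genes (7.61%) had an unadjusted p under 0.05. Among the 10 these were Atf3 and Jun, higher by 3.04 (SE 0.98, edgeR adjusted p = 0.547) and 0.97 (SE 0.30, edgeR adjusted p = 0.53), and Ier3, at -1.48 (SE 0.51, edgeR adjusted p = 0.568). Of 305 genes called by DESeq2 (1.8% of all genes tested), 1 was among the 10, Atf3 (DESeq2 adjusted p = 0.0359). For 2iJ against 2i, 1 library a side, edgeR and DESeq2 each called 0 of the 10 and 0.0% of all genes tested, with 0 of the 10 and 86 genes in all (0.507%) at an unadjusted p under 0.05 in edgeR. Within 2iJ+B-A, day 5 was the highest of the 3 days for Fos, Jun, Junb, Atf3, Hspa1a, Hspa1b and Dnajb1, 7 of the 10 genes, as it was for 32.4% of all genes tested.

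Wider lists of related genes, which hold none of the 10, were counted beside them. For comparison, all genes tested had a median log2 fold change of -0.078 in sorted cells against 2iJ+B-A and of -0.025 in mesoderm against 2iJ+B-A, and 3.34% and 11.5% of them were called higher. By edgeR 2.08% and 15.5% were called lower. DESeq2 called 7.07% higher and 8.83% lower in the sorted cells, and 14.4% higher and 18.0% lower in mesoderm. An unadjusted p under 0.05 in edgeR was reached by 12.3% higher and 14.7% lower in the sorted cells. In mesoderm it was reached by 18.4% higher and 22.3% lower. The counts in each list are to be read against the shares of the same comparison. Of 40 other immediate-early genes, all tested, edgeR called 4 higher in the sorted library than in 2iJ+B-A (Csrnp1, Socs3, Trib1 and Nr4a2) and 0 lower, and their median log2 fold change was 0.56. DESeq2 called 9 higher and 0 lower, and at an unadjusted p under 0.05 edgeR had 11 higher and 2 lower. Csrnp1, a nuclear protein induced by AXIN1 and by stress, was at 288 CPM in the sorted library, 44.7, 56.3 and 29.2 CPM in 2iJ+B-A on days 2, 5 and 11, and 14.9 CPM in both mesoderm libraries (log2 fold change against 2iJ+B-A 2.78, SE 0.32, edgeR adjusted p = 0.0134). Socs3, a feedback inhibitor of JAK-STAT signalling, was at 40.7 CPM against 3.06, 3.82 and 3.42 CPM (log2 fold change 3.62, SE 0.45, edgeR adjusted p = 0.0167), and its mesoderm levels were 3.50 and 7.17 CPM. Trib1, a pseudokinase that guides protein degradation, was at 77.2 CPM against 6.52, 11.6 and 11.8 CPM (log2 fold change 3.00, SE 0.35, edgeR adjusted p = 0.0141). In mesoderm Trib1 was at 27.2 and 23.6 CPM and was called higher as well (log2 fold change 1.36, edgeR adjusted p = 0.0208). For these 3 genes the sorted library was the highest of all 8, as it was for 15 of the 40 and for 23.1% of all genes tested. The 3 were named for their large ratios to day 2, so their rank is not independent of that choice. Nr4a2, an orphan nuclear receptor, was at 4.95 CPM against 0.938, 1.18 and 0.911 CPM, and the mesoderm libraries were near it at 3.75 and 4.88 CPM. Nfkbia, the inhibitor of NF-κB, and the kinase gene Sgk1 were at 0.41 and 0.65 times the unsorted day 2 level, without passing the edgeR test (adjusted p = 0.391 and 0.704). In mesoderm 12 of the 40 were called higher and 4 lower (Ctgf, Mcl1, Csrnp1 and Pim1), and their median log2 fold change was -0.22.

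Of 30 other heat-shock genes 29 were tested (all but Hspa1l), of which edgeR called 1 higher in the sorted library than in 2iJ+B-A and 0 lower, with a median log2 fold change of -0.041. DESeq2 called 2 higher and 4 lower, and at an unadjusted p under 0.05 edgeR had 3 higher and 6 lower. Cryab, a small heat-shock protein, was 4.51 times the unsorted day 2 level, but its 24.3 CPM in the sorted library lay among the unsorted days, which were at 5.38, 30.4 and 45.1 CPM. Dnajb2 was 2.21 times the day 2 level (edgeR adjusted p = 0.305). At the other end, among genes at 10 CPM or more, the co-chaperone Cacybp and the heat-shock factor Hsf2 were at 0.36 and 0.39 times the day 2 level, the lowest of 8 libraries for both, without passing the test against the 3 days (edgeR adjusted p = 0.0593 and 0.0742). In mesoderm edgeR called 0 higher and 2 lower (Hspb1 and Cryab), with 2 higher and 9 lower at an unadjusted p under 0.05, and DESeq2 called 1 higher and 7 lower. Their median there was 0.042.

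Of 27 other genes of the integrated stress and unfolded protein responses, all tested, edgeR called 1 higher and 0 lower in the sorted library against 2iJ+B-A, with a median log2 fold change of 0.14. DESeq2 called 3 higher and 0 lower, and at an unadjusted p under 0.05 edgeR had 3 higher and 1 lower. That gene was Ddit4, an inhibitor of mTOR signalling, at 326 CPM in the sorted library and 123, 108 and 101 CPM in 2iJ+B-A (log2 fold change 1.61, SE 0.30, edgeR adjusted p = 0.038). Ddit4 was as high in mesoderm, at 439 and 248 CPM. Among genes at 10 CPM or more in either library, the next largest ratios to day 2 after Ddit4 were 2.17 for Herpud1 and 2.15 for Trib3, a target of CHOP, which was at 12.5 CPM against 5.79, 7.60 and 3.94 CPM (edgeR adjusted p = 0.294). Sdf2l1 and Cebpb were at 0.76 and 0.93 times the day 2 level. In mesoderm 3 were called higher (Ddit4, Cebpg and Vldlr) and 3 lower (Asns, Cebpb and Nupr1), and the median was -0.242.

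Of 12 p53 response genes edgeR called 0 in the sorted cells, with 2 at an unadjusted p under 0.05 and 1 called by DESeq2, all higher, and the median log2 fold change was 0.285. Perp, Mdm2 and Cdkn1a were at 3.97, 2.96 and 2.38 times the unsorted day 2 level (edgeR adjusted p = 0.281, 0.0803 and 0.46), and Eda2r and Zmat3 at 0.71 and 0.91 times. In mesoderm 1 was called, Trp53inp1, which was lower, and the median was -0.116. Of 8 apoptosis genes edgeR called 0 in the sorted cells, with 2 at an unadjusted p under 0.05 and 2 called by DESeq2, all higher, and the median was -0.26. In mesoderm 2 were called higher and 1 lower (Bax), with a median of 0.506. Pmaip1, which encodes NOXA, was at 36.0 CPM in the sorted library against 5.99, 10.97 and 8.46 CPM in 2iJ+B-A (edgeR adjusted p = 0.137). Bcl2l11 and Bcl2l1 were at 2.26 and 1.69 times the day 2 level, and Bak1 at 0.65 times. Of 8 ERK feedback genes, which report the activity that a MEK inhibitor blocks, edgeR called 1 higher in the sorted cells and DESeq2 2, with a median of 0.092. The gene called by edgeR was the phosphatase gene Dusp4, at 52.1 CPM against 3.06, 7.88 and 7.52 CPM in 2iJ+B-A (log2 fold change 3.13, SE 0.44, edgeR adjusted p = 0.0222). Spry2 was at 42.7 CPM against 9.09, 20.5 and 19.3 CPM (edgeR adjusted p = 0.0953), Spred2 at 1.23 times and Etv5 at 0.67 times the day 2 level. In mesoderm 5 of the 8 were called higher, Dusp6, Dusp4, Spry2, Spred1 and Spred2, and 1 lower, Etv5, with a median of 2.90. Dusp4 in mesoderm was at 176 and 151 CPM and Spry2 at 136 and 102 CPM, so the sorted library lay between the unsorted cells and mesoderm for both. The MEK inhibitor PD0325901 was in all mESC cultures and is not listed for mesoderm, and its part in these values was not tested.

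**Figure D4:**
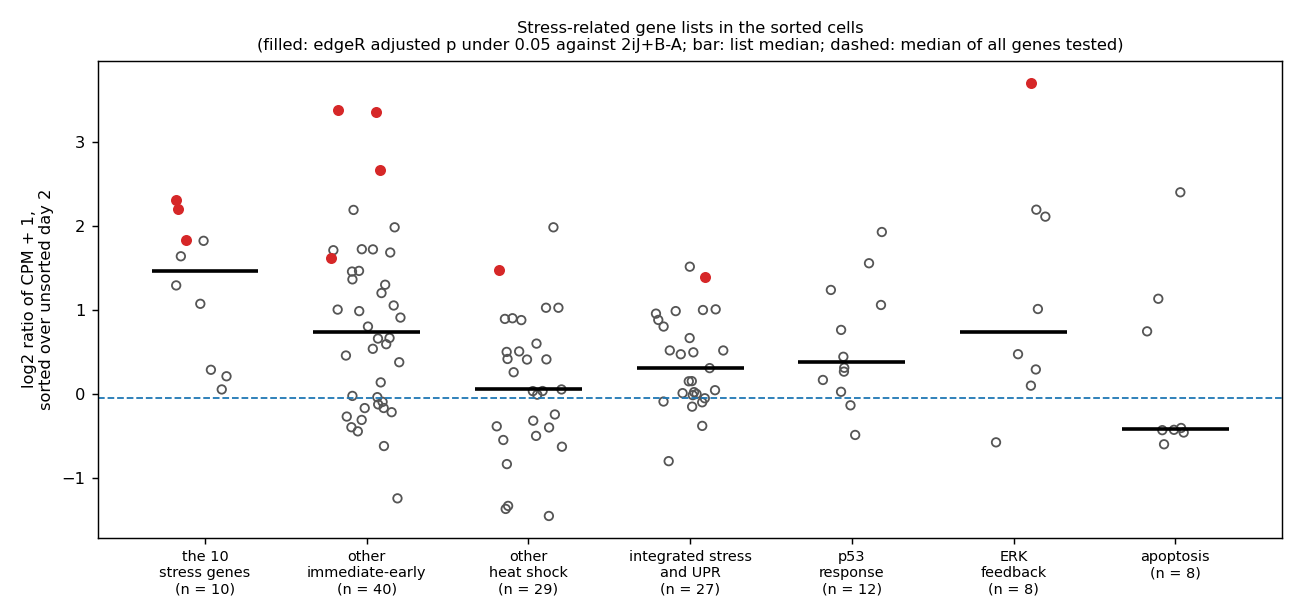
Log2 ratio of CPM + 1 in the sorted library to that in the unsorted day 2 library, for the 10 stress genes and 6 other lists; each point is a gene, bars are list medians, the dashed line is the median of all genes tested (-0.045), and filled points have an edgeR adjusted p under 0.05 against the 3 days of 2iJ+B-A. The median was 1.47 for the 10 genes, 0.74 for other immediate-early genes and 0.06 for other heat-shock genes.

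Across the 8 libraries the 10 genes did not follow a single pattern. As a description, the highest Pearson correlation of log2(CPM + 1) among them was between Hspa1a and Hspa1b (r = 0.93), then between Hspa1a and Ddit3 (r = 0.82) and between Jun and Junb (r = 0.79), and the lowest between Junb and Ier3 and between Ier3 and Dnajb1 (r = -0.61 for each). Fos and Ddit3 correlated with r = 0.78 and Junb and Egr1 with r = 0.75. All points share library, line and depth, and a single high library can set such a value. Among 9457 genes with a mean of at least 10 CPM, the patterns nearest to Fos were those of Atg9a (r = 0.971), Mrps15 (0.962) and Ctnna1 (0.96), each highest in the sorted library, with Atg9a at 100.5 CPM there and 14.3 CPM in the unsorted day 2 library. Those nearest to Egr1 were Rrp1 (0.972), Chst2 (0.97) and Rwdd2b (0.968), each highest in the mesoderm progenitors. The patterns nearest to Hspa1a were those of Myo1c (0.969), Ppp1r13l (0.96) and Tpst2 (0.949), which were highest in the sorted library and second highest in 2iJ+B-A day 5.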

How the data were processed

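Members and lists were chosen with earlier results of these data known. The deposited values were raw counts of read pairs per gene, made by the authors with STAR 2.4.2a on NCBIM37 after base calling with bcl2fastq 2.17 and trimming with cutadapt. Poly-A libraries were strand-specific, so the counts on the reverse strand were used, and CPM were those counts scaled to a total of 1000000 gene counts. Each condition and day gave 1 library. The 3 days of 2iJ+B-A and the 2 days of mesoderm served as samples of a group, and may not be independent cultures. The p-values measure only the spread between such libraries. All 8 libraries in 5 groups were fitted in edgeR 4.0.16 (R 4.3.3; quasi-likelihood test, TMM), over genes with at least 10 counts in 2 libraries, with Benjamini-Hochberg adjustment at 0.05. The spread came from 3 residual degrees of freedom. The fit was tested on simulated data. The simulated spread between libraries was smaller than that of these data, so that test does not show how the fit performs on them. Alternatives were DESeq2 1.42.0, no filter, unstranded counts, other references, and leaving out each mesoderm, 2iJ+B-A or sorted library in turn. Intervals of CPM and of ratios are exact 95% intervals and cover counting error only. A count of 0 allows up to 3 counts. From each list the up to 3 largest rises and 2 largest falls against unsorted day 2, at 10 CPM or more, were named, and the pattern nearest to a gene was the highest Pearson r. Nr4a2 and the other genes named outside this rule were called, and were chosen after their values were seen. Some genes counted in the lists are not reported here by name. Gene names came from GENCODE vM1, which named 37205 of 37620 genes.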

Additional observations from a re-analysis of the deposited data

How the results depend on the processing

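Of the 3 genes called in the sorted cells against 2iJ+B-A, 3 were called with DESeq2, without the filter, with unstranded counts, in a fit of the sorted and 2iJ+B-A libraries only, and against all 5 unsorted mESC libraries, and 0 with a slope on day; leaving out 1 library gave 0 to 3, with 0 whenever a 2iJ+B-A day was left out. Over all genes the same call went from 919 to between 27 and 2697, that of mesoderm against 2iJ+B-A from 4584 to between 2019 and 5502, and that of sorted against mesoderm from 4678 to between 2763 and 5782. For sorted against mesoderm, DESeq2 called 5 of the 10 genes and leaving out 1 library gave 1 to 3. For 2iJ+B-A against 2iJ, DESeq2 called 1. With day 5 as reference, 4 genes were at least 2-fold higher in the sorted library in place of 7. Near-zero values changed sign: Junb in sorted cells against 2iJ+B-A was at 0.0109 with those libraries only, 0.3485 against all unsorted mESCs, 0.0034 with DESeq2 and -0.1673 to 0.3287 on leaving out a library, and Dnajb1 was at 0.0141 with the slope. In mesoderm, leaving out a library gave -1.348 to 0.0951 for Atf3 and -0.6199 to 0.3133 for Ier3. Against day 5 the sorted ratio was 0.91 for Atf3 and 1.00 for Hspa1b. The cause of these shifts was not tested. Leaving out the sorted library, added after seeing the data, changed no count of calls among the 10 genes in the comparisons without sorted cells. The comparisons with sorted cells could not be fitted without it. No paired analysis was possible because the groups do not share replicate numbers that pair samples. Depth limits Egr1 and Hspa1a most, with 10 and 16 counts in their lowest libraries.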
